A study of Schizosaccharomyces pombe with 12 samples.

Results

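The genes described here are the iron uptake genes and iron regulators of fission yeast, Schizosaccharomyces pombe. They were chosen by name: fio1, fip1 and frp1 of reductive uptake, sib1 and sib2 of siderophore synthesis, str1, str2 and str3 of siderophore and heme transport, and the regulators fep1 and php4. Each of the 10 genes had 1 probe set, of 2917 probe sets that match exactly 1 S. pombe gene (2899 genes). No measured value entered the choice, but the genes were picked with earlier results of these data known.

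The study measured total RNA on 12 Affymetrix Yeast Genome 2.0 arrays, 1 for each of 3 strains in 4 conditions, to ask what the histone chaperone HIRA does in the response to a mild stress before a severe one. The strains were slm9D (h-, leu1-32, ura4-D18, slm9::ura4), hip1D (h-, leu1-32, ura4-D18, hip1::ura4) and WT (h-, leu1-32, ura4-D18). Slm9 and Hip1 are subunits of HIRA, which deposits histones on DNA independently of replication. All strains carried the leu1-32 and ura4-D18 alleles, each deletion was represented by 1 strain, and the deletion strains also carried ura4, so loss of HIRA and gain of ura4 cannot be told apart. Log-phase cells in YES, a rich medium, at 32 °C were held at 40 °C for 1 h, given 25 mM H2O2 for 1 h, given 40 °C for 1 h and then 25 mM H2O2 for 1 h, or left unstressed. No strain and condition was measured a second time. The design text describes the conditions as aliquots, so the 4 arrays of a strain may come from 1 culture, and an average over conditions may then compare single cultures. The p-values speak only of how these arrays vary. For differences inside 1 condition and for responses, the spread comes only from how slm9D and hip1D differ, because WT has 1 array per condition.

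Iron enters fission yeast by several routes. In reductive uptake the ferric reductase Frp1 reduces iron at the cell surface, and the ferroxidase Fio1 with the permease Fip1 carries it in. In the siderophore route the cell makes ferrichrome with Sib1 and Sib2 and takes up iron bound to siderophores through Str-family transporters. When iron is plentiful the GATA-type factor Fep1 represses the uptake genes. When iron is scarce Php4 joins the CCAAT-binding complex and represses genes whose products use iron.

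Levels are log2 RMA intensities, so a difference of 1 is a doubling of signal, and levels of different genes are not set against each other because probe sets differ in brightness. The background of an array is the 95th percentile of 2601 probe sets for genes that are not in the S. pombe table. All but str3 stood above it on each of the 12 arrays, and str3 on 10. A gene was called at an adjusted p under 0.05, from limma with Benjamini-Hochberg adjustment over all 2917 probe sets. The median of the S. pombe probe sets was 9.36 on the WT array after H2O2 alone and at most 9.57 elsewhere, and the lowest other array stood at 9.46. As a check of the labels, slm9 averaged 5.14 ± 0.22 in slm9D, 9.74 ± 0.04 in hip1D and 9.59 ± 0.31 in WT (SD, n = 4 each). The probe set of hip1 averaged 8.39 ± 0.07 in hip1D, 9.63 ± 0.16 in slm9D and 9.51 ± 0.22 in WT, a small loss of signal for a deleted gene, and whether its probes lie in the deleted part is not given in the sources used here. The marker ura4 averaged 11.46 ± 0.25 in slm9D, 11.64 ± 0.20 in hip1D and 4.69 ± 0.41 in WT.

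Averaged over the 4 conditions, most uptake genes had higher signal in the HIRA mutants, and neither regulator was called. The genes str3, sib1, fip1, frp1, sib2 and str2 were higher in the mutants than in WT, which is 6 of the 10 genes and 6 of the 8 uptake genes. None was lower as deposited. With quantile normalization of the S. pombe probe sets 4 of the 8 uptake genes were higher, without fip1 and str2, and fep1 was lower. With that scaling 641 of all 2917 probe sets were higher and 966 lower. As deposited, 25.3% of them were called higher and 28.7% lower, and either call was made for 54%. The median difference of the 10 genes was 0.55, against -0.02 for all probe sets. Signal was higher in both mutants than in WT in each of the 4 conditions for frp1, sib1, sib2, str2 and str3, which is 5 of 10 genes, against 20.8% of all probe sets. All 8 mutant arrays stood above all 4 WT arrays for frp1 and str3, against 7.64% of all. The RIP1 control, whose gap between 3' and 5' probe sets follows RNA quality and labelling, had log2 gaps of 0.85 to 1.34 on the mutant arrays and 0.76 to 0.90 on the WT arrays, and the ACT1 control 0.45 to 0.89 and 0.39 to 1.03. Their part in the differences was not tested.

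**Figure D1:**
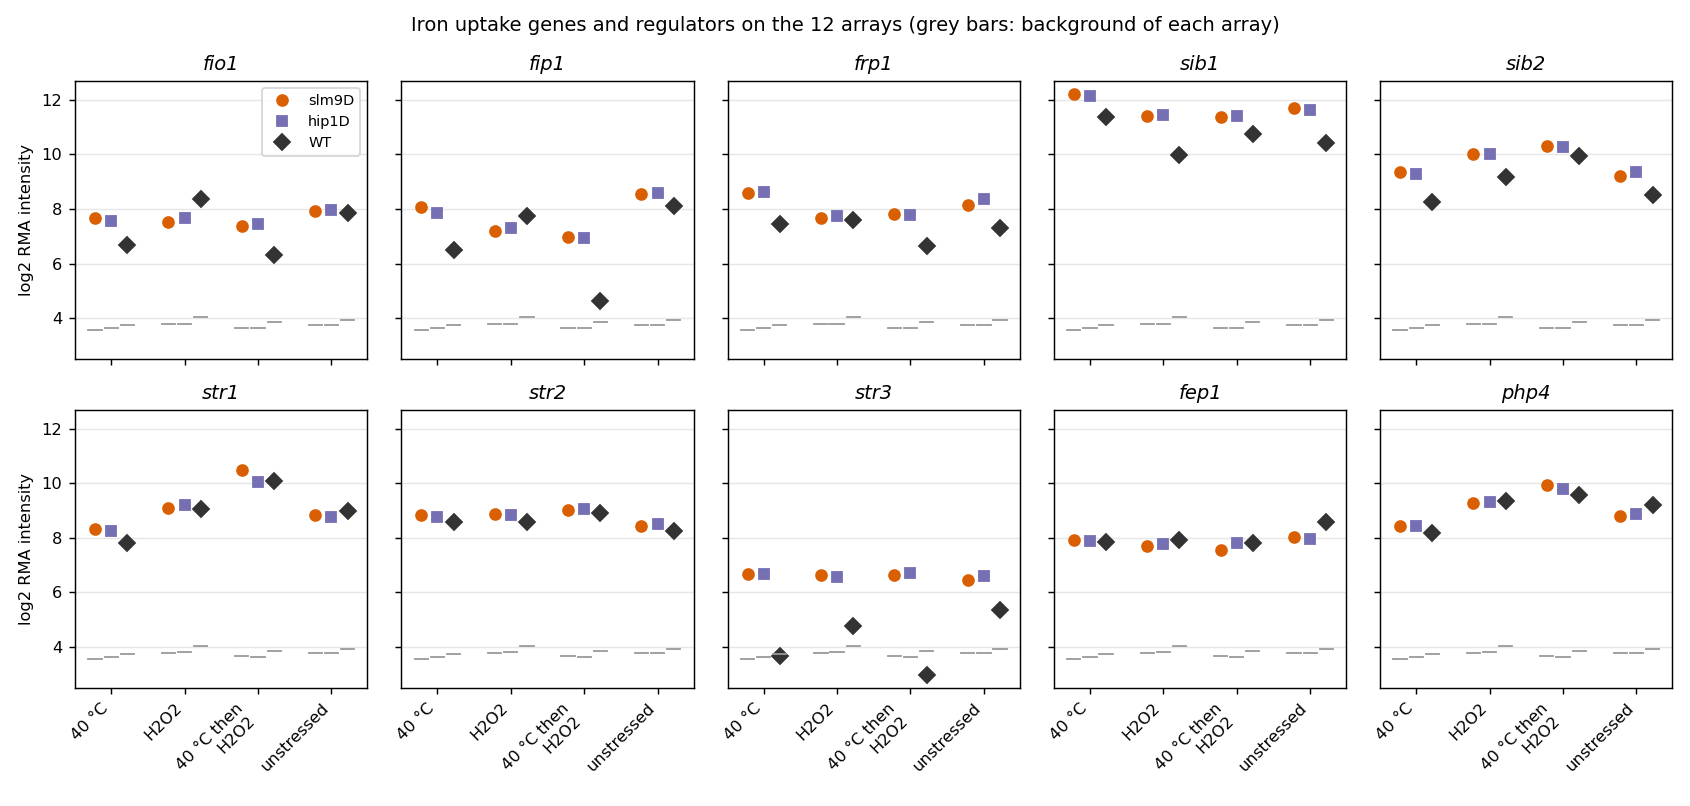
Log2 RMA intensity of each of the 10 genes (vertical axis) in 40 °C, H2O2, 40 °C then H2O2 and unstressed cells (horizontal axis), 1 point per array of slm9D, hip1D and WT; grey bars mark the background of each array. The mutant points lie close together throughout, and the WT points for str3 at 40 °C and after 40 °C then H2O2 sit at or under background.

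The gene fio1 encodes the multicopper ferroxidase of reductive uptake. At 40 °C its log2 level was 7.67 in slm9D and 7.55 in hip1D, against 6.68 in WT. After 40 °C then H2O2 it was 7.37 and 7.46 in slm9D and hip1D, against 6.32 in WT. With H2O2 alone the order turned, at 7.52 and 7.67 in the mutants against 8.35 in WT. Unstressed arrays were alike, at 7.94, 7.95 and 7.86 in slm9D, hip1D and WT. The mutants were therefore above WT at 40 °C (difference 0.93 ± 0.10 SE, limma adjusted p = 7.46e-07) and after both stresses (2.14-fold, adjusted p = 1.58e-07), where quantile normalization gave a log2 difference of 0.67. They were below WT after H2O2 alone (-0.75 ± 0.10, adjusted p = 4.04e-06). Averaged over conditions the difference was 0.34 ± 0.25 (adjusted p = 0.286), and it passed the test without the H2O2 arrays (0.70, adjusted p = 0.0179).

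The neighbouring gene fip1 encodes the iron permease that works with Fio1. Its signal after 40 °C then H2O2 was 6.97 in slm9D and 6.92 in hip1D, against 4.61 in WT. After 40 °C alone it was 8.07 and 7.86 in slm9D and hip1D, against 6.48 in WT. These are the widest gaps between mutants and WT among the 3 genes of reductive uptake. With H2O2 alone fip1 stood at 7.20 and 7.31 in the mutants against 7.73 in WT, and in unstressed cells at 8.54 and 8.57 against 8.12. The mutants were higher by 2.34 ± 0.10 after both stresses (5.05-fold, limma adjusted p = 4.32e-11), by 1.49 ± 0.10 at 40 °C (2.81-fold, adjusted p = 6.92e-09) and by 0.44 ± 0.10 unstressed (adjusted p = 0.00165). After H2O2 alone they were lower (-0.47 ± 0.10, adjusted p = 0.000586), and quantile normalization of the S. pombe probe sets gave -0.78. The average over conditions was 0.95 ± 0.36 (adjusted p = 0.0476). Without the H2O2 arrays it was 1.42. The call was lost with quantile normalization (0.64, adjusted p = 0.105) and without the arrays of 40 °C then H2O2 (0.48, adjusted p = 0.236). It was lost without the slm9D arrays (0.93, adjusted p = 0.119) or the hip1D arrays (0.96, adjusted p = 0.135). The same held without the unstressed arrays (1.12, limma adjusted p = 0.0883), without the 40 °C arrays (0.77, adjusted p = 0.2) and without the intensity trend (adjusted p = 0.064).

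The ferric reductase gene frp1 was above WT in 3 conditions by similar amounts. At 40 °C frp1 read 8.59 in slm9D and 8.64 in hip1D, against 7.45 in WT. In unstressed cells it read 8.15 and 8.38 in slm9D and hip1D, against 7.29 in WT. After both stresses the values were 7.82 and 7.78 in the mutants against 6.65 in WT. The groups were clearly apart in these 3 conditions, whereas after H2O2 alone slm9D, hip1D and WT stood at 7.68, 7.76 and 7.60. The differences were 1.16 ± 0.10 at 40 °C (limma adjusted p = 7.31e-08), 0.98 ± 0.10 unstressed (adjusted p = 6.25e-07), 1.15 ± 0.10 after both stresses (adjusted p = 1.02e-07) and 0.12 ± 0.10 after H2O2 (adjusted p = 0.283). After both stresses quantile normalization gave 0.76. Averaged over conditions frp1 was 1.80-fold higher in the mutants (0.85 ± 0.16, adjusted p = 0.00172).

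Both genes of ferrichrome synthesis were higher in the mutants in all 4 conditions. The nonribosomal peptide synthetase gene sib1 read 11.41 in slm9D and 11.44 in hip1D after H2O2, against 9.99 in WT. In unstressed cells it read 11.69 and 11.64 in slm9D and hip1D, against 10.41 in WT. At 40 °C the levels were 12.23 and 12.14 in the mutants against 11.37 in WT, and after both stresses 11.36 and 11.41 against 10.76. The gap was thus wider in H2O2-treated and unstressed cells, at 1.44 ± 0.06 (2.71-fold) and 1.25 ± 0.06 (2.38-fold), than at 40 °C, at 0.82 ± 0.06, or after both stresses, at 0.63 ± 0.06. The largest limma adjusted p of these 4 differences was 2.47e-07, after both stresses, and the average was 1.03 ± 0.11 (adjusted p = 9.12e-05).

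The gene sib2, next to sib1, encodes the ornithine N5-oxygenase of the same pathway. Its level at 40 °C was 9.37 in slm9D and 9.30 in hip1D, against 8.24 in WT. With H2O2 alone it was 10.02 and 10.03 in the mutants against 9.19 in WT, and in unstressed cells 9.20 and 9.35 against 8.53. After both stresses the groups came closer, at 10.31 and 10.26 in the mutants against 9.95 in WT. The difference was 2.14-fold at 40 °C. On the log2 scale it was 0.83 ± 0.08 after H2O2, 0.74 ± 0.08 unstressed and 0.34 ± 0.08 after both stresses (limma adjusted p = 0.00158, the largest of the 4). Averaged over conditions sib2 was 1.69-fold higher (0.75 ± 0.10, adjusted p = 0.000363).

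The widest gap of all belonged to str3, which encodes a heme transporter of the plasma membrane. Its 8 mutant values lay between 6.45 and 6.71, with a mean of 6.61 ± 0.08 (SD, n = 8). At 40 °C it read 6.66 in slm9D and 6.66 in hip1D, against 3.65 in WT. After both stresses it read 6.62 and 6.71 in slm9D and hip1D, against 2.95 in WT. On these 2 WT arrays str3 was not above background, which stood at 3.73 and 3.84, so only a bound holds there. On the deposited scale, background was taken as the WT level. The mutants were then at least 7.65-fold higher at 40 °C and at least 7.08-fold higher after both stresses. The limma adjusted p was 2.11e-11 and 1.89e-12 on the measured values. After H2O2 alone the levels were 6.62 and 6.56 in the mutants against 4.77 in WT (1.82 ± 0.13, adjusted p = 3.16e-09), and unstressed they were 6.45 and 6.58 against 5.36 (1.16 ± 0.13, adjusted p = 1.33e-06).

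The size of the str3 difference depended on scaling. With quantile normalization of the S. pombe probe sets alone it was 1.47 over all conditions, against 2.42 ± 0.34 as deposited. Within conditions it was 1.87 at 40 °C, 0.65 after H2O2, 3.10 after both stresses and 0.27 in unstressed cells (limma adjusted p = 0.0582). The call in unstressed cells was thus lost. After both stresses the deposited scale gave 3.71, measured on a WT signal under background. The background ran from 3.55 to 3.80 on the mutant arrays and from 3.73 to 4.03 on the WT arrays.

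The ferrichrome transporter gene str1 had no steady difference. At 40 °C str1 read 8.32 in slm9D and 8.23 in hip1D, against 7.81 in WT (0.47 ± 0.12, limma adjusted p = 0.00423). In the other 3 conditions the mutant values lay within 0.19 of WT on average, and none of these differences passed the test. After both stresses slm9D read 10.50, hip1D 10.06 and WT 10.09, so the mutants fell on both sides of WT. Without that hip1D array the difference passed (0.41, adjusted p = 0.00177).

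The siderophore transporter gene str2 differed little. The mutants were higher by 0.25 ± 0.08 after H2O2 (limma adjusted p = 0.00877), 0.23 ± 0.08 unstressed (adjusted p = 0.0191) and 0.21 ± 0.08 at 40 °C (adjusted p = 0.0287). After both stresses the difference was 0.14 ± 0.08 (adjusted p = 0.143). Quantile normalization ended the calls after H2O2 (0.05) and at 40 °C (0.16), and the calls at 40 °C and unstressed were also lost without slm9D (0.17) and without hip1D (0.18) there. The average, 0.21 ± 0.06 (adjusted p = 0.019), is a 1.15-fold difference. It did not pass with quantile normalization (0.13, adjusted p = 0.109), without the slm9D arrays (0.21, adjusted p = 0.2), without the hip1D arrays (0.20, adjusted p = 0.206), or without the unstressed (0.20), 40 °C (0.20) or H2O2 arrays (0.19).

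Neither regulator had a steady difference between mutants and WT. The repressor gene fep1 read 8.02 in unstressed slm9D and 7.95 in unstressed hip1D, against 8.59 in unstressed WT. At 40 °C it read 7.91 and 7.87 in slm9D and hip1D, against 7.83 in WT. With H2O2 alone it read 7.70 and 7.77 in the mutants against 7.90 in WT, and after both stresses 7.54 and 7.81 against 7.80. The unstressed WT array was the highest of the 12. There the mutants were lower (-0.60 ± 0.10, limma adjusted p = 0.000129), and no other condition passed. Quantile normalization gave a lower fep1 in the mutants also after H2O2 (-0.42, adjusted p = 0.00254), after both stresses (-0.33, adjusted p = 0.0152) and over all conditions (-0.37, adjusted p = 0.00845), where the deposited scale gave -0.21 ± 0.11 (adjusted p = 0.137).

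The gene php4 read 8.81 and 8.86 in unstressed slm9D and hip1D, against 9.21 in unstressed WT (-0.38 ± 0.08, limma adjusted p = 0.000704). At 40 °C it read 8.41 in both mutants against 8.18 in WT (0.23 ± 0.08, adjusted p = 0.0188). After both stresses it read 9.92 and 9.77 in the mutants against 9.56 in WT (0.28 ± 0.08, adjusted p = 0.00614). The sign of the difference thus turned between unstressed and heated cells. After H2O2 alone it was -0.08 ± 0.08 (adjusted p = 0.375), and the average over conditions was 0.01 ± 0.10 (adjusted p = 0.918). The call at 40 °C was lost with quantile normalization (0.16, adjusted p = 0.105).

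By condition, mutants against WT gave 9 genes higher and none lower at 40 °C, where fep1 alone was not called, against 29.3% higher and 34.1% lower of all probe sets. After H2O2 there were 4 higher (sib1, sib2, str2 and str3) and 2 lower (fio1 and fip1), against 38% and 37.2%. After both stresses 7 were higher and none lower, against 29.5% and 29.6%. In unstressed cells 6 were higher and 2 lower (fep1 and php4), against 26% and 34.6%. For H2O2 the share of the 10 genes called higher is close to that of all probe sets, while the WT array of that condition has the lowest median. Quantile normalization, which equalises the medians, gave -0.94 for fio1 and -0.78 for fip1 there, so both stayed lower in the mutants.

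**Figure D2:**
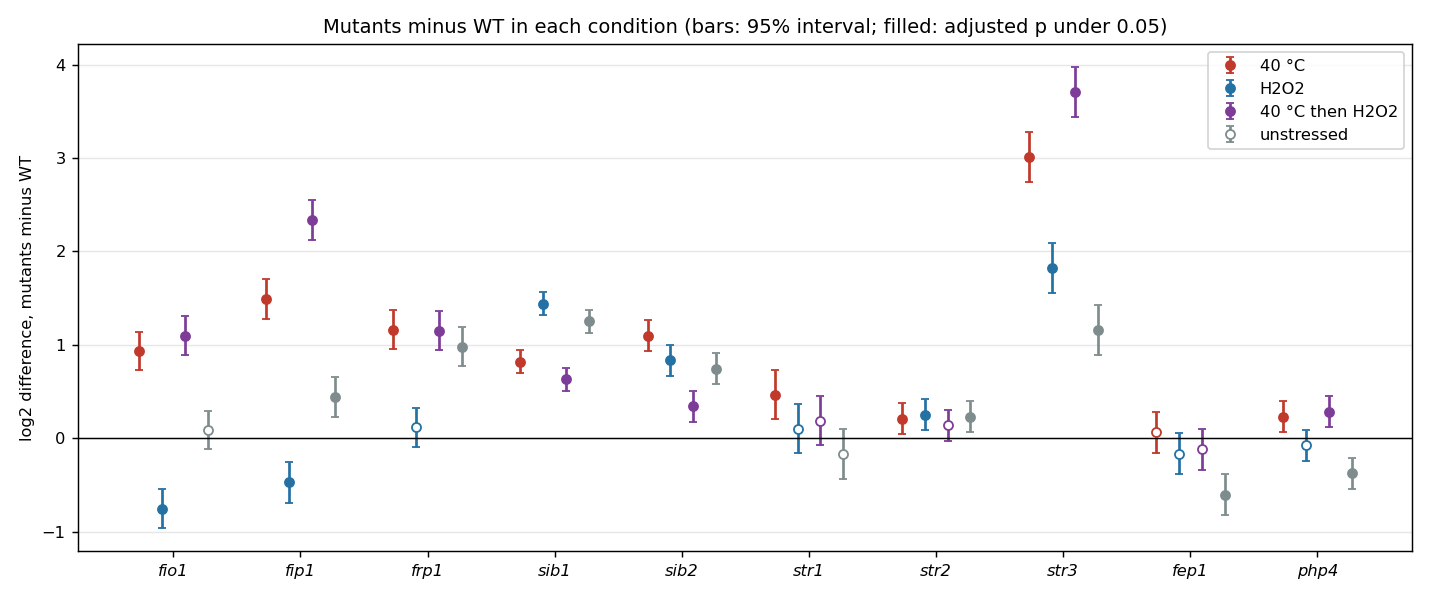
Log2 difference of mutants minus WT for each of the 10 genes (horizontal axis) in the 4 conditions; points are fitted differences, bars 95% intervals and filled points calls at an adjusted p under 0.05. The str3 points at 40 °C (3.01) and after 40 °C then H2O2 (3.71) rest on WT signals at or under background, and fio1 and fip1 after H2O2 lie below 0.

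The 2 mutants resembled each other. Over 40 pairs of a gene and a condition, slm9D and hip1D differed by at most 0.44, for str1 after both stresses, and by a median of 0.07. No gene was called between them (0 of 10, limma), and none had an unadjusted p under 0.05. Of all 2917 probe sets 3 were called, which is 0.103%, and 6 had an unadjusted p under 0.05. The fit used here takes the responses of all strains to be equal, so differences of response between mutants and WT count as spread. The lack of calls therefore cannot show likeness. The 95% interval of the average difference, which rests on that spread, was widest for fip1, at -0.90 to 0.96. The limits for sib1 were -0.28 and 0.31.

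Averaged over strains, the stress conditions moved mainly str1, php4, sib2, str2 and fip1. The 3 stress conditions share the unstressed arrays as their baseline, so their values stand side by side without a measure of overlap. At 40 °C sib1 (0.67 ± 0.15, limma adjusted p = 0.00576) and str2 (0.33 ± 0.08, adjusted p = 0.00898) rose, and str1 (-0.73 ± 0.14, adjusted p = 0.00284) and php4 (-0.63 ± 0.14, adjusted p = 0.00536) fell. That is 4 of 10 called, against 48.4% of all probe sets. H2O2 alone gave 2 of 10, against 45% of all: sib2 (0.72 ± 0.14, adjusted p = 0.00314) and str2 (0.37 ± 0.08, adjusted p = 0.00562) rose. With quantile normalization str1 (0.41) and php4 (0.48) also passed there, and str2 stood at 0.6. Without the slm9D arrays none of the 10 passed limma's test after H2O2 (1 had an unadjusted p under 0.05), and without the hip1D arrays 1 did, against 14.2% and 19.1% of all probe sets. At 40 °C 3 passed without the slm9D arrays and 2 without the hip1D arrays, against 21.4% and 21.8% of all probe sets. With the mutants alone 7 passed at 40 °C and 9 after H2O2, against 74.7% and 72.4% of all probe sets.

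After 40 °C then H2O2, 6 of 10 genes were called, against 57.3% of all. The ferrichrome transporter str1 read 10.50 in slm9D, 10.06 in hip1D and 10.09 in WT after both stresses, against 8.82, 8.77 and 8.96 in the same strains unstressed. The rise was 2.58-fold (1.37 ± 0.14, limma adjusted p = 5.58e-05). The rise of sib2 was 1.15 ± 0.14 (adjusted p = 0.00013), that of php4 0.79 ± 0.14 (adjusted p = 0.00107) and that of str2 0.60 ± 0.08 (adjusted p = 0.000242). The permease gene fip1 fell (-2.24 ± 0.47, adjusted p = 0.00294), as did fep1 (-0.47 ± 0.15, adjusted p = 0.0202), whose call was lost with quantile normalization (-0.26, adjusted p = 0.097) and without the slm9D arrays (-0.46, adjusted p = 0.156) or the hip1D arrays (-0.63, adjusted p = 0.0513). The 28S control probe set also moved with H2O2, between 13.05 and 13.40 after both stresses and 12.69 and 12.89 after H2O2, against 10.21 to 10.73 unstressed. The gap between 3' and 5' probe sets of ACT1 was 0.46 to 0.56 at 40 °C, 0.65 to 0.66 after H2O2 and 0.80 to 1.03 after both stresses, against 0.39 to 0.46 unstressed. That of a further control, CC338.15, was 1.19 to 1.56, 1.08 to 1.27 and 1.22 to 1.41 in the same conditions, against 0.78 to 0.99 unstressed. The RIP1 gap did not widen in this way after H2O2 or both stresses. It was 0.86 to 1.34, 0.89 to 1.09 and 0.76 to 1.01 in the same conditions, against 0.9 to 1.17 unstressed. The part of these controls in the responses was not tested.

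Heat before H2O2, set against H2O2 alone, asks what the first stress adds to the second. Of the 10 genes 3 were called, all higher on the deposited scale, against 35.8% of all probe sets: str1 (1.11 ± 0.14, limma adjusted p = 0.000818), php4 (0.44 ± 0.14, adjusted p = 0.0351) and sib2 (0.42 ± 0.14, adjusted p = 0.0414). For str1 the levels after both stresses were 10.50, 10.06 and 10.09 in slm9D, hip1D and WT. After H2O2 alone they were 9.09, 9.20 and 9.04. The calls of php4 and sib2 were lost with quantile normalization (0.37 and 0.35) and without the slm9D arrays (0.33 and 0.49) or the hip1D arrays (0.43 and 0.52). Without the slm9D or the hip1D arrays str1 alone among the 10 was called, against 7.03% and 11.3% of all probe sets. The difference of fip1, -1.25 ± 0.47 (adjusted p = 0.0667), passed with quantile normalization (-1.28, adjusted p = 0.0391), so that 1 gene was then higher and 1 lower. With the mutants alone 5 genes passed, against 62.6% of all probe sets.

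The HIRA mutants and WT responded differently at 40 °C and after both stresses for most of these genes. A response is the difference from the same strain unstressed, and the difference of responses was tested as an interaction, called for 8 of 10 genes at 40 °C, 6 of 10 after H2O2 and 7 of 10 after both stresses. Over all probe sets the shares were 40.7%, 47.3% and 46%. After H2O2 the share of the 10 genes is thus near that of all probe sets. With quantile normalization str3, fep1 and php4 lost their calls there, and of all 2917 probe sets 518 were called higher and 560 lower. The responses themselves were called in the mutants for 7 of 10 genes at 40 °C, 9 after H2O2 and 9 after both stresses, against 74.7%, 72.5% and 79.1% of all probe sets. In WT they were called for 9, 8 and 10 of 10 genes, against 67.9%, 70.8% and 76.7%. Each WT response rests on 1 stressed and 1 unstressed array, which the fit assumes to vary as the mutant arrays do.

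Of the reductive uptake genes, fip1 and fio1 fell more in WT than in the mutants at 40 °C and after both stresses. After 40 °C then H2O2 the response of fip1 was -1.61 in the mutants and -3.51 in WT, a difference of 1.90 ± 0.15 (limma adjusted p = 8.14e-09), and 1.2 with quantile normalization. Its response at 40 °C was -0.59 in the mutants and -1.64 in WT (difference 1.05 ± 0.15, adjusted p = 1.61e-05). The ferroxidase gene fio1 followed the same order, with responses of -0.53 in the mutants and -1.54 in WT after both stresses (difference 1.01 ± 0.14, adjusted p = 1.1e-05; 0.65 with quantile normalization) and of -0.34 in the mutants and -1.18 in WT at 40 °C (difference 0.84 ± 0.14, adjusted p = 9.43e-05). The reductase frp1 did not show a called difference of responses under heat, at 0.18 ± 0.13 (adjusted p = 0.29) at 40 °C and 0.17 ± 0.13 (adjusted p = 0.302) after both stresses.

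After H2O2 alone the 3 reductive uptake genes went the other way. The responses of the mutants were -0.35 for fio1, -1.30 for fip1 and -0.55 for frp1. Those of WT were 0.49 for fio1, -0.39 for fip1 and 0.31 for frp1, so fio1 and frp1 fell in the mutants and rose in WT. The differences of responses were -0.84 ± 0.14 for fio1 (limma adjusted p = 7.74e-05), -0.91 ± 0.15 for fip1 (adjusted p = 5.48e-05) and -0.86 ± 0.13 for frp1 (adjusted p = 3.64e-05), and they remained called with quantile normalization. That scaling gave WT responses of 0.85 for fio1 and 0.65 for frp1 and a mutant response of -0.33 for frp1. It turned the sign of the WT response of fip1 (0.07, adjusted p = 0.63) and ended the call of the mutant response of fio1 (-0.11, adjusted p = 0.201).

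For str3 the mutants' responses were 0.15 at 40 °C, 0.08 after H2O2 and 0.15 after both stresses, and none passed the test. On the deposited scale the WT level fell at least 3.1-fold at 40 °C and at least 2.86-fold after both stresses. For these bounds the background stood in for the stressed signal. The WT response to H2O2 was -0.59, a call lost with quantile normalization (-0.16, limma adjusted p = 0.3). The differences of responses on the measured values were 1.85 ± 0.18 at 40 °C (limma adjusted p = 2.93e-07), 0.66 ± 0.18 after H2O2 (adjusted p = 0.00645) and 2.55 ± 0.18 after both stresses (adjusted p = 4.03e-09). With quantile normalization the mutant response at 40 °C became a fall (-0.41, adjusted p = 0.00242), and the difference after H2O2 was no longer called (0.38, adjusted p = 0.0923).

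Siderophore synthesis responded in a further way. The synthetase gene sib1 rose at 40 °C by 0.52 in the mutants and 0.95 in WT, a difference of -0.43 ± 0.08 (limma adjusted p = 0.000362). After both stresses its response was -0.28 in the mutants and 0.34 in WT (difference -0.62 ± 0.08, adjusted p = 7e-06), each of them called, so the direction was opposite. For sib2 the rise after both stresses was 1.01 in the mutants and 1.41 in WT (difference -0.40 ± 0.11, adjusted p = 0.00688), and at 40 °C the difference was 0.36 ± 0.11 (adjusted p = 0.0159). These 2 calls of sib2 were lost without the unstressed hip1D array (-0.31, adjusted p = 0.0509) and without the unstressed slm9D array (0.26, adjusted p = 0.105).

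The transporter gene str1 fell at 40 °C, with responses of -0.52 in the mutants and -1.15 in WT (difference 0.64 ± 0.15, limma adjusted p = 0.00292), and str2 had no called difference of responses. The response of php4 at 40 °C was -0.42 in the mutants and -1.03 in WT (difference 0.61 ± 0.11, adjusted p = 0.000308). Its rise after both stresses was 1.01 in the mutants and 0.35 in WT (difference 0.66 ± 0.11, adjusted p = 0.000111). The responses of fep1 in the mutants were -0.09 at 40 °C, -0.25 after H2O2 and -0.31 after both stresses, against -0.76, -0.69 and -0.79 in WT, with called differences of 0.67, 0.44 and 0.48. Quantile normalization ended the last 2 calls (0.24, adjusted p = 0.188, and 0.34, adjusted p = 0.0736). The unstressed WT array, at 8.59, enters all 3 of these fep1 values.

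**Figure D3:**
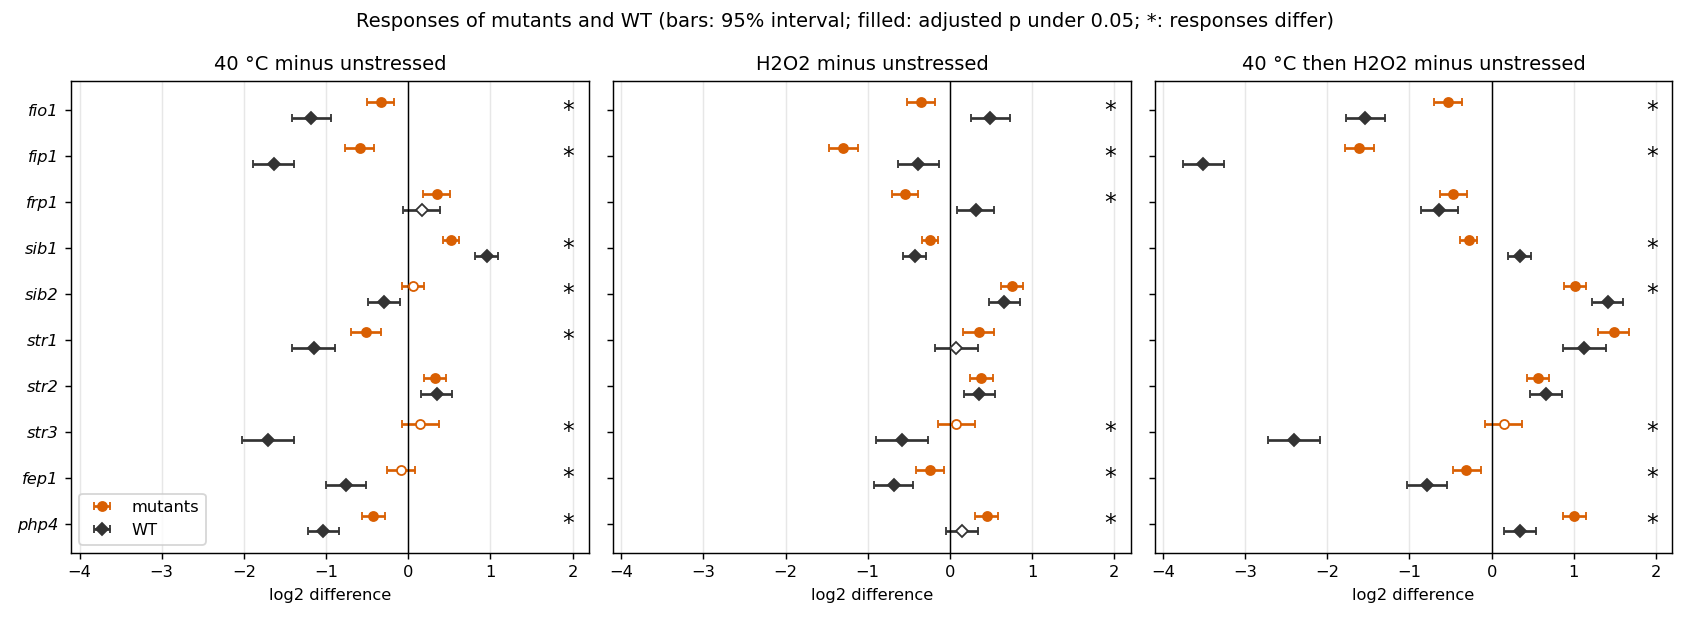
Responses to 40 °C, H2O2 and 40 °C then H2O2 (3 panels), as log2 difference from unstressed cells of the same genotype (horizontal axis). Circles are the mutants and diamonds WT. Bars are 95% intervals, filled points calls at an adjusted p under 0.05, and asterisks called differences of responses. For fip1 after 40 °C then H2O2 the response was -1.61 in the mutants and -3.51 in WT.

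The spread of each gene over the 12 arrays was divided into parts. Genotype (mutants against WT) took 81.5% of the sum of squares for str3, 60.7% for sib1 and 54.7% for frp1, against a median of 15.2% over all probe sets. Condition took 95.8% for str1, 94.1% for php4 and 81.1% for str2, against a median of 66.4%. The interaction of genotype and condition, left after both separate parts, took 43% for fio1, 23% for fip1 and 22.8% for fep1, against a median of 8.69%. These shares describe the arrays and carry no test. The SD over the 12 arrays was 1.32 for str3 and 1.09 for fip1, at the 98.3rd and 97th percentile of all probe sets, and 0.25 for both str2 and fep1.

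**Figure D4:**
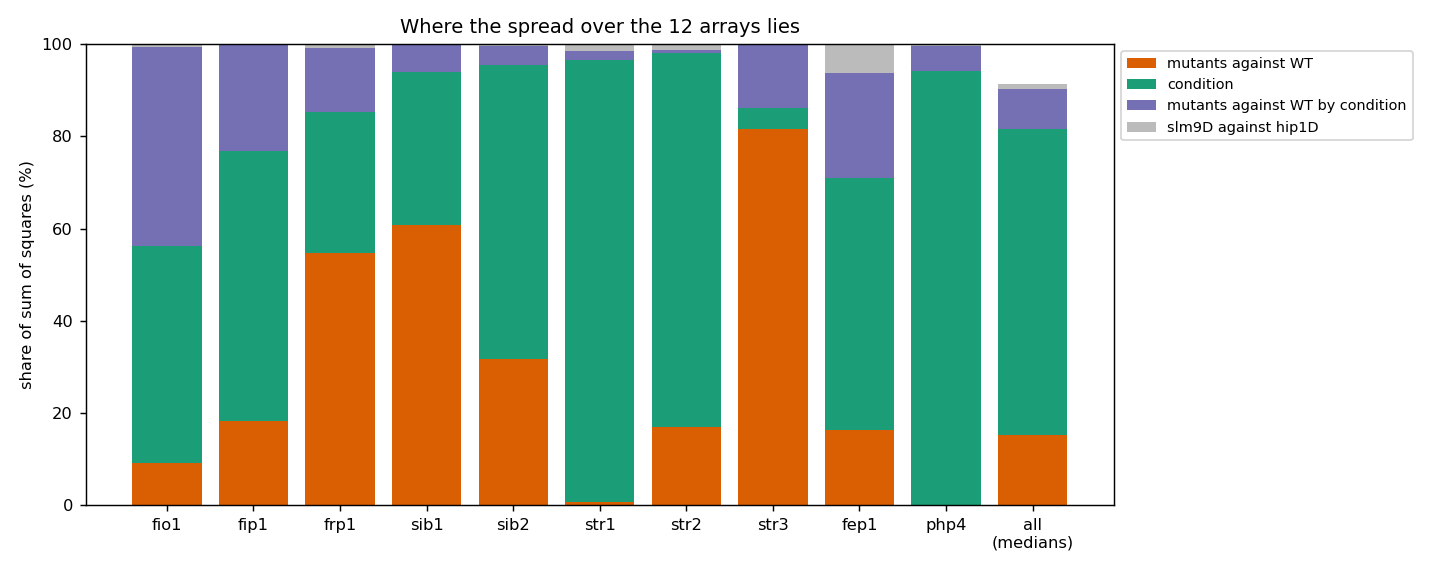
Share of the sum of squares over the 12 arrays (%, vertical axis), for each of the 10 genes and as medians of all probe sets (last bar). The parts are mutants against WT, condition, the interaction of these, and slm9D against hip1D. The medians need not add up to the whole. Genotype takes 81.5% for str3 and condition 95.8% for str1.

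Some of the genes are neighbours. By the RefSeq gene order, fio1 and fip1 are neighbours on chromosome I, and so are sib1 and sib2. By the ending of their systematic locus names, the genes of each pair are read in opposite directions away from each other. Averaged over strains, sib2 rose by 1.15 after both stresses, whereas sib1 differed by -0.07 ± 0.15 (limma adjusted p = 0.696). That sib1 average combines a fall in the mutants (-0.28) with a rise in WT (0.34). The reductase gene frp1 lies next to pcl1, which encodes a vacuolar iron importer, on chromosome II. Over all conditions pcl1 was lower in the mutants (-1.06 ± 0.09, adjusted p = 1.74e-05) where frp1 was higher.

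Many genes whose products use iron were lower in the mutants. Of 14 measured enzymes with iron-sulfur clusters or heme, 10 were lower over all conditions and none higher, with a median of -0.33. They include leu2 of leucine synthesis (-0.69 ± 0.04, limma adjusted p = 1.4e-06), the sulfite reductase gene sir1 (-0.39 ± 0.04, adjusted p = 0.000124), lys2 of lysine synthesis (-0.56 ± 0.06, adjusted p = 0.000124) and the ribosome recycling factor gene rli1 (-0.37 ± 0.04, adjusted p = 0.000157). With quantile normalization 7 of the 14 were lower and none higher, against 966 lower and 641 higher of all 2917 probe sets. Without the H2O2-alone arrays 9 of the 14 were lower and none higher, against 701 lower and 578 higher of all. Of 8 heme synthesis genes 4 were lower and none higher, with hem13 at -0.93 ± 0.09 (adjusted p = 5.05e-05) and hem12 at -0.66 ± 0.06 (adjusted p = 2.65e-05). Of 10 genes of iron-sulfur cluster assembly 6 were lower, with isa2 at -0.63 ± 0.07 (adjusted p = 8.77e-05), and 2 higher. Against the counts on the deposited scale with all arrays stand 28.7% lower and 25.3% higher of all probe sets. Of the listed genes, 16 were not measured here.

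The partners of Fep1 and Php4 gave 1 higher and 3 lower of 7, against 25.3% and 28.7% of all probe sets. The corepressor gene tup11, whose product acts with Fep1, was 2.39-fold higher in the mutants (1.26 ± 0.16, limma adjusted p = 0.000231), and its paralogue tup12 was lower (-0.32 ± 0.07, adjusted p = 0.00466). The glutaredoxin gene grx4, whose product acts on Fep1 and Php4, was also lower (-0.34 ± 0.11, adjusted p = 0.0263). With quantile normalization 1 of the 7 was lower and 1 higher, against 966 lower and 641 higher of all 2917 probe sets. Of 4 other uptake and vacuolar genes, the vacuolar transporter abc3 was higher (0.64 ± 0.07, adjusted p = 8.31e-05), as was frp2, which resembles ferric reductase genes (1.59 ± 0.34, adjusted p = 0.00361). The frp2 difference was 3.33 after H2O2 and between 0.89 and 1.13 in the other conditions. Copper genes gave 3 higher and 2 lower of 9, which is close to the shares of all probe sets. One of them is cuf2, a factor known from meiosis (measured difference 2.85 ± 0.16, adjusted p = 2.35e-06), which stood above background on all 8 mutant arrays and on 3 of the 4 WT arrays.

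Under 40 °C then H2O2 the iron-using enzymes fell in 9 of 14 cases and rose in 3, against 33.5% lower and 23.8% higher of all probe sets. The largest falls were those of glt1, a glutamate synthase gene (-1.60 ± 0.07, limma adjusted p = 8.25e-07), and erg11 of ergosterol synthesis (-1.11 ± 0.06, adjusted p = 2.11e-06). Partners of Fep1 and Php4 rose in 4 of 7 cases and fell in 1, grx4 (-0.94 ± 0.14, adjusted p = 0.000447). The CCAAT-complex subunit gene php2 rose (0.97 ± 0.15, adjusted p = 0.000404), and pcl1 fell (-1.50 ± 0.12, adjusted p = 1.12e-05). Of 9 copper genes 5 rose and 3 fell, and the falls included the copper transporter genes ctr4 (-2.37 ± 0.11, adjusted p = 7.62e-07) and ctr5 (-1.47 ± 0.13, adjusted p = 2.06e-05).

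**Figure D5:**
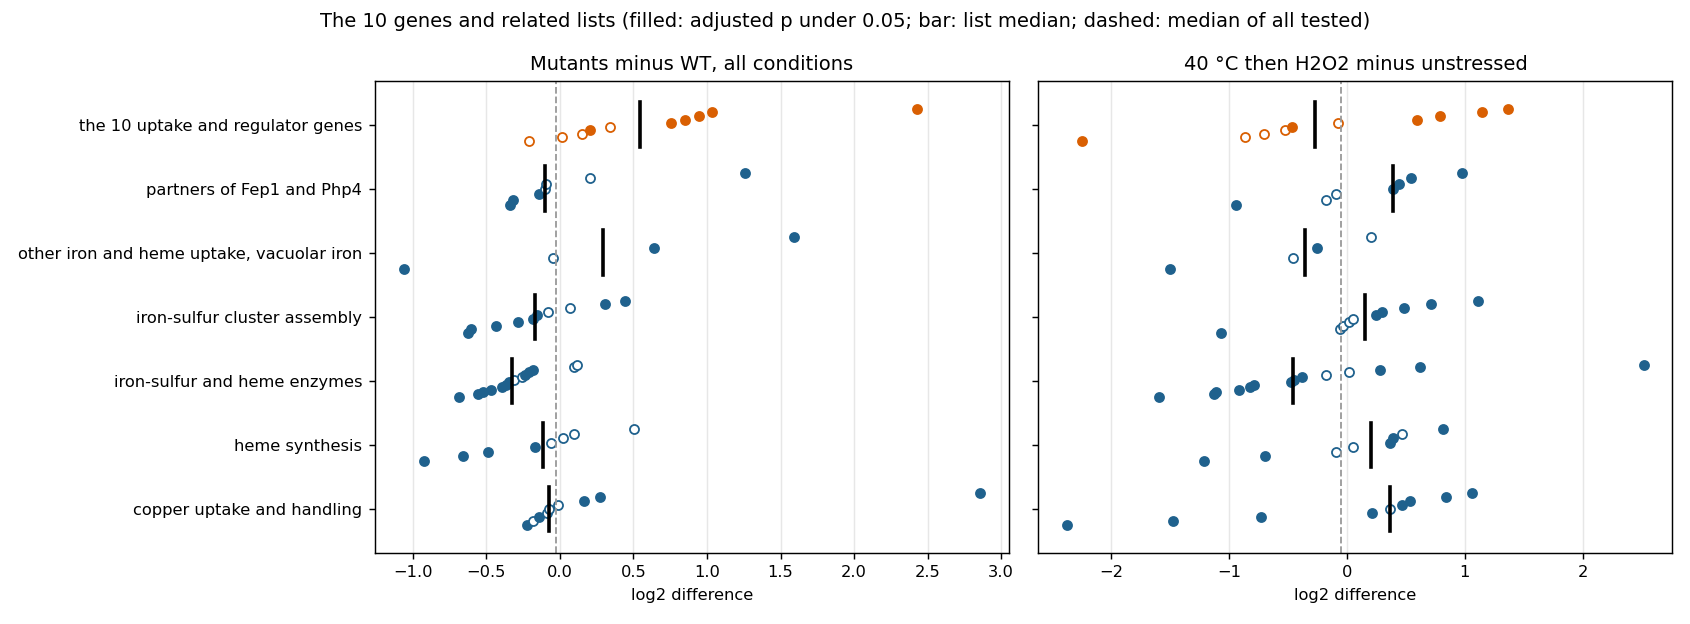
Log2 differences of the 10 genes and of 6 related lists, for mutants minus WT over all conditions (left) and 40 °C then H2O2 minus unstressed (right); each point is 1 probe set, filled if called at an adjusted p under 0.05, black bars are list medians and the dashed line the median of all probe sets. The iron-sulfur and heme enzymes have a median of -0.33 on the left, where the 10 genes have 0.55.

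The probe sets whose pattern over the 12 arrays was most like the mean of the 8 uptake genes were 2 of the 4 for tlh2 (Pearson r = 0.97 for each), meu6 (0.97), spo6 (0.93) and grt1 (0.93), of 718 probe sets with an SD of at least 0.5. That mean was taken on centred log2 values that were not scaled, so genes with a wide spread weigh most. The widest were str3 and fip1, with SDs over the 12 arrays of 1.32 and 1.09, against 0.25 for str2. The gene tlh2 has a near-identical subtelomeric copy elsewhere, so its signal cannot be given to 1 gene with certainty. After 40 °C then H2O2, meu6 read 7.96 in slm9D and 8.17 in hip1D, against 5.21 in WT. For php4 the pattern most like it was that of str1 (0.96), ahead of ppr8 (0.90) and oca2 (0.87). For fep1 it was that of bio2 (0.90), which encodes the iron-sulfur enzyme biotin synthase, ahead of scw1 (0.87) and laf1 (0.86). These likenesses come from arrays that share strain and condition and are given as descriptions.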

How the data were processed

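Total RNA of 12 samples was hybridised as biotinylated cRNA to 1-colour arrays, per the labels. The deposited intensity values were made by the authors in Affymetrix Expression Console 1.1 by RMA, according to the submitters' processing notes. RMA's settings are not stated in those notes or the labels. The values span 2.88 to 20293 and are linear. All tests used log2 of the deposited intensities. RMA equalises arrays, so changes in total RNA are removed. All 12 value columns were used.

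The platform annotation was matched to RefSeq by gene ID (2914 probe sets) or symbol (3), of 10928 probe sets in all. Of the rest, 20 were shared by several S. pombe genes and 5177 had no gene name.

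The tests are limma 3.58.1 fits with an intensity trend, in R 4.3.3. Strain and condition effects came from an additive fit (residual degrees of freedom 6), genotype differences inside 1 condition from 8 means (4), and responses from 8 means with a term for slm9D against hip1D (3). The last 2 fits assume that a lone WT array varies as the mutant arrays do. Fits were tested on simulated data. The 10 genes, the related lists and the tests were chosen with earlier results of these data known. Besides the 10 genes, the text names up to 4 called genes with the smallest p of each related list in each comparison described, the 5 probe sets most like the uptake mean and 3 each for fep1 and php4 (Pearson correlation over 12 arrays), and slm9, hip1 and ura4. The alternatives tried were leaving out dim probe sets, quantile normalization of S. pombe probe sets, a shift to equal medians of outside probe sets, no intensity trend, and leaving out arrays. Scaling alternatives and the removal of the H2O2-alone arrays were added for the related lists after seeing the data. The number of arrays limits the precision.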

Additional observations from a re-analysis of the deposited data

Results flagged for a closer look

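The difference between the mutants' response and the WT response passed limma's test for an interaction (adjusted p under 0.05) in 21 of 30 combinations of the 10 genes and 3 stress conditions. Each is given as the log2 response of slm9D and hip1D minus that of WT. At 40 °C the values were 0.84 for fio1, 1.05 for fip1, -0.43 for sib1, 0.36 for sib2, 0.64 for str1, 1.85 for str3, 0.67 for fep1 and 0.61 for php4. After H2O2 alone they were -0.84 for fio1, -0.91 for fip1, -0.86 for frp1, 0.66 for str3, 0.44 for fep1 and 0.30 for php4. The last 3 were no longer called with quantile normalization (0.38, 0.24 and 0.23). The call of php4 was also lost without the intensity trend (adjusted p = 0.0513) and without the unstressed slm9D array (0.26, adjusted p = 0.123) or the H2O2 hip1D array (0.26, adjusted p = 0.0974), and that of fep1 without the unstressed hip1D array (0.35, adjusted p = 0.0679). After 40 °C then H2O2 they were 1.01 for fio1, 1.90 for fip1, -0.62 for sib1, -0.40 for sib2, 2.55 for str3, 0.48 for fep1 and 0.66 for php4, of which fep1 lost its call with quantile normalization (0.34, adjusted p = 0.0736) and without the hip1D array of that condition (0.34, adjusted p = 0.0571). The shares called over all 2917 probe sets were 40.7% at 40 °C, 47.3% after H2O2 and 46% after both stresses. All 3 conditions share the unstressed arrays, and the str3 values at 40 °C and after both stresses rest on WT signals at or under background.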

How the results depend on the processing

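Of 124 called differences of the 10 genes, 821 values were computed under alternatives; 765 kept direction and call, 55 kept direction without the call, and 1 changed sign (fip1, WT response to H2O2, 0.073 with quantile normalization against -0.387 as reported). Of 66 differences not called, 443 of 479 values stayed so, 35 passed, and 1 passed with the other sign (str3, mutant response to 40 °C, -0.408 with quantile normalization against 0.146). In 41 further cases the sign changed while neither value was called. With quantile normalization the number of the 10 genes called was 4 for H2O2 minus unstressed (2 as reported) and 3 for the difference of responses to H2O2 (6 as reported; str3, fep1 and php4 lost their calls). Leaving out 1 strain gave 2 to 7 genes for 40 °C minus unstressed and 0 to 9 for H2O2 minus unstressed. For 40 °C then H2O2 minus H2O2 it gave 1 to 5. The counts were lowest without a mutant and highest without WT, and so were the shares called over all probe sets. Those shares ran from 21.4% to 74.7%, from 14.2% to 72.4% and from 7.03% to 62.6%, in the same order. The cause was not tested. Over all probe sets the split of higher against lower calls moved by over 10 percentage points with a shift to equal outside medians for 40 °C (801 to 573, against 662 to 750 as reported), for mutants against WT unstressed (913 to 806, against 759 to 1009) and for 40 °C then H2O2 against H2O2 (651 to 414, against 526 to 518). It did so with quantile normalization for H2O2 (646 to 670, against 460 to 852), for the WT response to H2O2 (1021 to 955, against 741 to 1323) and for the difference of responses to H2O2 (518 to 560, against 905 to 475) and to both stresses (549 to 594, against 781 to 561). The labels give no replicate numbers to pair arrays by, and the additive fit already compares conditions within strains and strains within conditions. Signal over background limits str3 on 2 WT arrays.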
